A study of Mus musculus with 4 samples.

Results

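The genes described here encode the receptors and ligands of vascular endothelial growth factor (VEGF) signaling. They are the receptor genes Flt1, Kdr and Flt4, the co-receptor gene Nrp1 and the ligand genes Vegfa, Vegfb and Pgf, 7 of the 27514 genes that the gene tables of all 4 libraries share. The family was chosen with its measured values in view, and the study itself used Flt1 among the genes that name endothelial cells. The values used were the counts of unique molecular identifiers (UMIs, tags that count each captured RNA molecule once) for every 1000000 UMIs of the same cells (CPM) and the share of cells with a UMI in endothelial, adenoma, other epithelial and macrophage cells. Levels across cell classes are therefore given as a description, without a test.

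All 4 single-cell libraries came from small intestinal adenomas of C57BL/6 mice aged 11 weeks and labelled male. Every mouse carried ApcMin/+, the heterozygous Apc mutation that gives rise to adenomas. The 2 ApcMin libraries were Lef1 +/+, and the 2 VApcMinL libraries were Lef1 fl/fl with Villin-Cre, a recombinase that acts in the intestinal epithelium and not in vessels, fibroblasts or leukocytes. Several tumors were pooled for each library and dissociated without sorting. Replicate 1 of each genotype was made with version 2 of the 10x Genomics 3′ kit and replicate 2 with version 3, so kit and experiment cannot be told apart. Where 4 values are given without names, they belong to the kit version 2 pair, ApcMin then VApcMinL, followed by the version 3 pair in the same order. Nothing in the labels says that the libraries of a genotype came from separate animals, so p-values measure the spread between libraries only.

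The libraries held 44660305 to 128247396 UMIs, and 12400 barcodes with at least 1000 UMIs and at most 20% mitochondrial UMIs were kept, at a median of 8453 to 25465 UMIs. The mitochondrial limit removed 62.9% of such barcodes from ApcMin replicate 2 and 27.3 to 30.5% from the other libraries. The kit version 2 libraries shared 18 kept barcodes, and 1 was shared between ApcMin replicate 1 and VApcMinL replicate 2. Lef1, the targeted gene, reached 8.91 CPM in the adenoma cells of ApcMin replicate 1, 25.5 in VApcMinL replicate 1, 29.6 in ApcMin replicate 2 and 21.1 in VApcMinL replicate 2. Its order went against the labels in the kit version 2 pair, although a 3′ tag may lie outside the deleted exons and then does not check the deletion. Xist, expressed from the inactive X chromosome of female cells, was at 0.0789 and 0.0621 CPM in the adenoma cells of the libraries labelled ApcMin, and at 1109 and 319 in those labelled VApcMinL, although all mice were labelled male. Any difference between the genotypes given here is thus a difference between libraries that also differ in Xist, the 2 cannot be told apart, and the groups are named as labelled.

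VEGF-A is a secreted growth factor that drives the growth and permeability of blood vessels, and oxygen shortage raises its gene's transcription through the HIF factors. Its receptors Flt1 and Kdr sit on blood endothelium, where Kdr carries most of the growth signal and Flt1 binds the ligand tightly with weak signaling of its own. VEGF-B and placental growth factor (Pgf) bind Flt1 but not Kdr, Flt4 serves VEGF-C and VEGF-D on lymphatic endothelium, and Nrp1 is a co-receptor that strengthens VEGF-A binding to Kdr. In adenomas, as in other growing tumors, this pathway is known for recruiting vessels.

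The upstream sequences of Flt1, Kdr and Vegfa are shown because of where these genes were counted. Flt1 and Kdr were both frequent in blood endothelial cells, whereas adenoma cells held Flt1 with hardly any Kdr. Flt1 was also compared between epithelial cells with and without Vegfa. Each run is the 250 bases before the first listed start of the gene in RefSeq, build GRCm38.p6, 5′ to 3′ on the gene's strand. Matches to the ETS core GGAAG or its reverse CTTCC are in capitals. ETS factors are transcription factors that include several used by endothelial cells. The Flt1 run is chr5:147726012-147726261, the Kdr run chr5:75978456-75978705 and the Vegfa run chr17:46032378-46032627, all on the minus strand.
Flt1: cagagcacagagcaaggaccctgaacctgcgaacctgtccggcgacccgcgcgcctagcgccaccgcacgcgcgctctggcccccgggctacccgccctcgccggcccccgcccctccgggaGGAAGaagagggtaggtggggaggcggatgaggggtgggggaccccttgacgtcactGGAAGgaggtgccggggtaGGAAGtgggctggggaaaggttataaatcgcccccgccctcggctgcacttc
Kdr: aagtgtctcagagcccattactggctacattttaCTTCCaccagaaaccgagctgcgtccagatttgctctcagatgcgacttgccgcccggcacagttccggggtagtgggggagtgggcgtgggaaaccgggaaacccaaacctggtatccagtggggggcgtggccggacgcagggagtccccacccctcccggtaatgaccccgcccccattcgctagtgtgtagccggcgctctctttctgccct
Vegfa: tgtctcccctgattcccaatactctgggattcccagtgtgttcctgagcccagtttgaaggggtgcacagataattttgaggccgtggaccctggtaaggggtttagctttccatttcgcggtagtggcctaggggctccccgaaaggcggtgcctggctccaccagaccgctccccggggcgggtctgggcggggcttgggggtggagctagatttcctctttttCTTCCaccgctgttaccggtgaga
The Flt1 run held 3 matches, with first bases 128, 71 and 52 bases before the start, and the Kdr run held 1 match, 216 bases before it. The Vegfa run held 1 match, 24 bases before the start, and the letters ACGTG of the hypoxia response element (reverse CACGT) were not in it. RefSeq lists another Vegfa start, whose window at chr17:46025164-46025413, not shown, held 1 ETS match and 1 hypoxia match. Among all 32544 promoter windows of the same length, 64.1% held an ETS match and 16.6% a hypoxia match, so a match to the ETS core was common. The windows of Flt4 and Nrp1 held 1 and 3 ETS matches, and those of Vegfb and Pgf held none. In GENCODE M21 (GRCm38), Flt1 spans chr5:147561604-147726011 and Kdr chr5:75932827-75978458, both on the minus strand, with Flt4 at chr11:49609263-49652739 and Nrp1 at chr8:128358604-128503363 on the plus strand. The ligand genes lie on the minus strand, with Vegfa at chr17:46016993-46032369, Vegfb at chr19:6982473-6987651 and Pgf at chr12:85166635-85177790.

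Cells were placed in classes by marker genes that did not include any of the 7 genes, with endothelial cells needing 6 of 11 endothelial markers. This gave 201 endothelial cells, 119 in ApcMin replicate 1, 67 in VApcMinL replicate 1, 8 in ApcMin replicate 2 and 7 in VApcMinL replicate 2. The endothelial cells held a median of 9 to 11 of the 11 markers and 0 of the 8 macrophage markers. Of them, 32 with at least 3 of 6 lymphatic markers were set apart as lymphatic endothelial cells, leaving 169 blood endothelial cells. The other classes used here were 3646 adenoma cells, 5864 other epithelial cells, 236 macrophages and 244 fibroblasts. Adenoma cells were epithelial cells with at least 3 of 9 markers of Wnt-activated adenoma cells. These markers include Notum, Nkd1, Wif1, Axin2, Dkk2, Prox1 and Tnfrsf19 (Troy). The study reported lower transcripts of these genes after Lef1 deletion in adenoma cells of another Apc-mutant mouse model. Entry to the adenoma and other epithelial classes may thus depend on the genotype compared, which was not tested. A marker is found more easily in a deep cell, and the adenoma class was also deeper, with a median of 18694 to 35193 UMIs per cell against 12131 to 26160 in other epithelial cells.

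Kdr, the main signaling receptor for VEGF-A, was counted almost entirely in endothelial cells. Its level there was 925 CPM in ApcMin replicate 1, 817 in VApcMinL replicate 1, 1266 in ApcMin replicate 2 and 873 in VApcMinL replicate 2 (mean 970 ± 202, SD, n = 4). Among the other 7 classes compared, the highest means were 1.56 in fibroblasts and 1.26 in macrophages, and adenoma cells were at 0.407, so the endothelial range overlapped none of them. Lymphatic endothelial cells also carried Kdr, at 477 and 548 CPM in the 2 libraries with 18 and 12 such cells, against 990 and 856 in the blood endothelial cells of the same libraries. At least 1 Kdr UMI was found in 156 of 169 blood and 24 of 32 lymphatic endothelial cells.

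Flt1, the tight-binding receptor, was also high in blood vessels but was found in the epithelium too. In endothelial cells it was at 1103 CPM in ApcMin replicate 1, 959 in VApcMinL replicate 1, 1683 in ApcMin replicate 2 and 1842 in VApcMinL replicate 2 (mean 1397 ± 432, SD, n = 4). The 2 higher values came from the 8 and 7 cells of the kit version 3 libraries, where 1 cell held 31.9% and 42.2% of the Flt1 UMIs. Its exact 95% Poisson interval was 1417 to 1985 in ApcMin replicate 2 and 860 to 1067 in VApcMinL replicate 1, and these intervals, like the others given here, cover counting error only. Flt1 was nearly confined to the blood endothelial part of the class. It was found in 160 of 169 blood endothelial cells and in 1 of 32 lymphatic endothelial cells, where a single UMI in ApcMin replicate 1 was the only one counted. In the 12 lymphatic cells of VApcMinL replicate 1 the count was 0. The bound used here for a count of 0 is 3 UMIs, which is 68.4 CPM in these cells. The kit version 3 libraries held 1 lymphatic cell each.

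Flt4, the receptor of lymphatic vessels, had the opposite order within the endothelium. It was at 716 CPM in the lymphatic endothelial cells of ApcMin replicate 1 and 411 in those of VApcMinL replicate 1, against 47.9 and 71.3 in the blood endothelial cells of the same libraries. The single lymphatic cells of the kit version 3 libraries held 13 and 4 Flt4 UMIs. Over the whole endothelial class its mean was 139 ± 62.4 (SD, n = 4), the next class being macrophages at 0.525, where 1 UMI was counted. Flt4 was found in 27 of 32 lymphatic cells and also in 39 of 169 blood endothelial cells.

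Nrp1, the VEGF-A co-receptor, was the most widely spread of the receptor genes. It was at 711, 678, 454 and 437 CPM in the endothelial cells of the 4 libraries (mean 570 ± 145, SD, n = 4). Fibroblasts came next, at 165 to 235 with a mean of 203, followed by macrophages at 58.9 to 117 with a mean of 92.8. The ranges of these 3 classes did not overlap, and below them B or plasma cells, T cells, adenoma cells and other epithelial cells had means of 7.53 down to 2.32. Nrp1 split the endothelium as Flt1 did, with a UMI in 155 of 169 blood and 0 of 32 lymphatic endothelial cells. Among the small classes, mural cells (pericytes and smooth muscle of the vessel wall) held it at 116 to 765 CPM in 1 to 10 cells a library.

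Receptor genes overlapped in single endothelial cells. With each cell thinned to 1000 UMIs, Flt1 was found in 61.3%, 52.2%, 75.0% and 71.4% and Kdr in 63.0%, 50.7%, 50% and 42.9% of the endothelial cells of the 4 libraries. Without thinning, the shares were 80.7%, 77.6%, 87.5% and 85.7% for Flt1 and 89.9%, 88.1%, 100% and 85.7% for Kdr. Of all 201 endothelial cells, 151 held UMIs of both Flt1 and Kdr, 59 of both Kdr and Flt4, and 5 held none of the 3 receptor genes. All 3 were found together in 39 cells, 38 of them blood endothelial. Kdr with Nrp1 occurred in 144 cells, all of them blood endothelial.

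**Figure D1:**
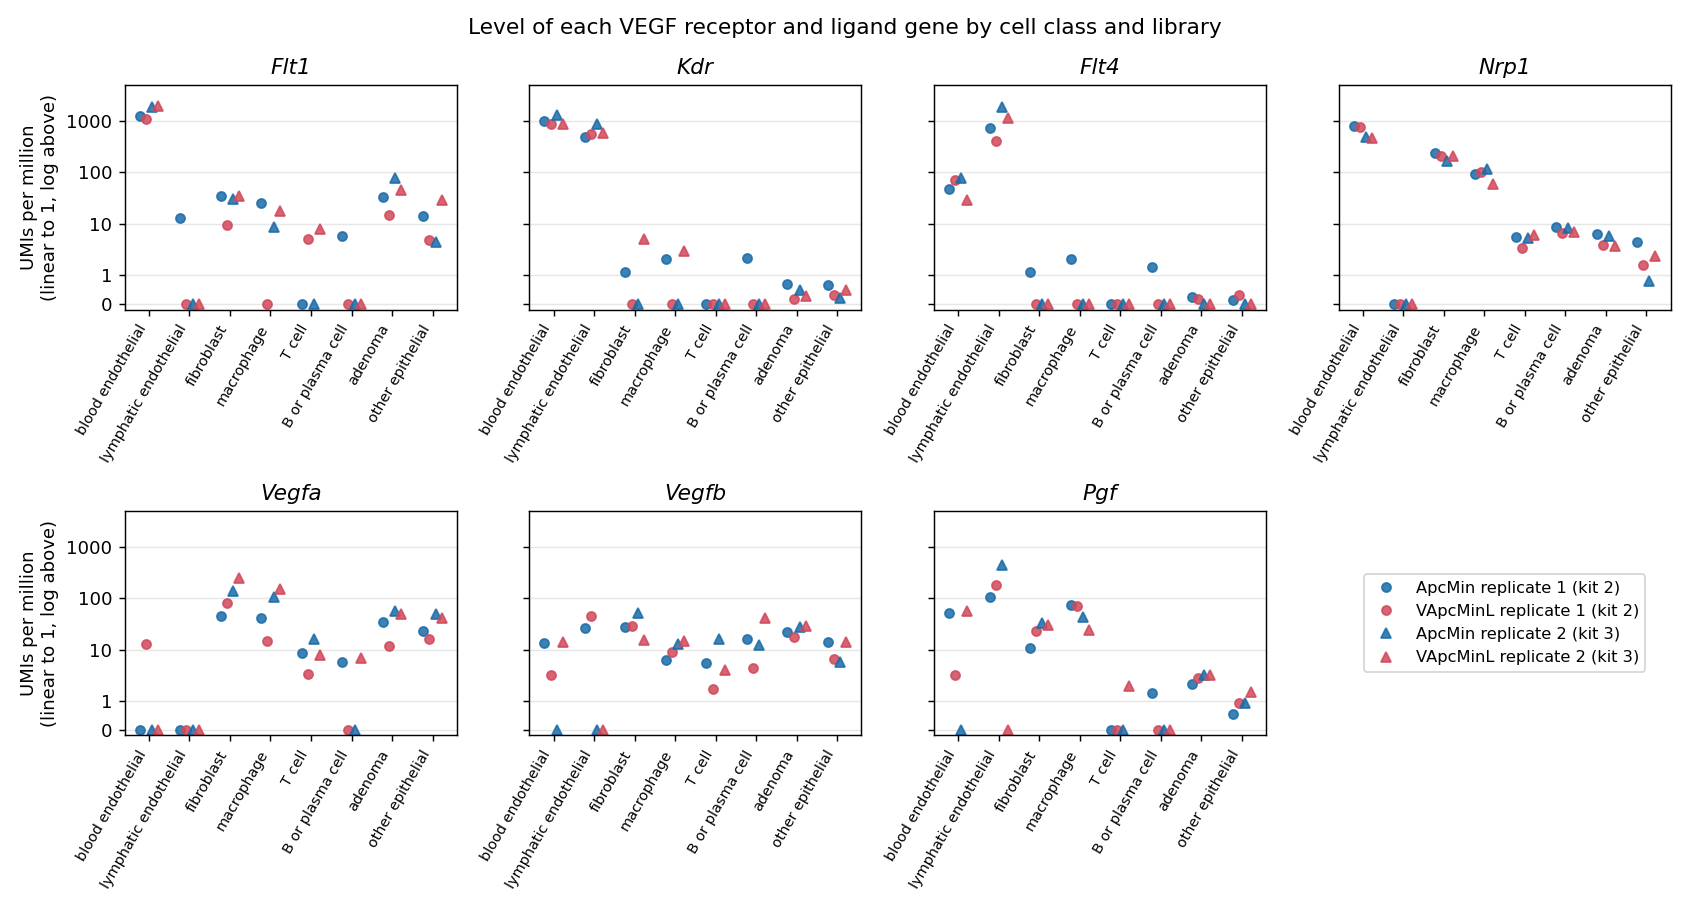
Level of each gene in CPM (linear from 0 to 1 and logarithmic above) in 8 cell classes, with 1 point for each library (blue for ApcMin, red for VApcMinL, circles for kit version 2, triangles for version 3). Flt1, Kdr and Nrp1 lie highest in blood endothelial cells and Flt4 in lymphatic endothelial cells, whereas Vegfa is at 0 in the lymphatic class and in 3 of 4 libraries of the blood endothelial class.

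Vegfa, the ligand of Flt1 and Kdr, was counted in fibroblasts, macrophages and epithelium and hardly at all in endothelium. Fibroblasts were at 45.1, 79.9, 136 and 248 CPM (mean 127 ± 88.6, SD, n = 4). Macrophages followed at 42.0, 14.8, 104 and 147 in the same order (mean 77.0 ± 59.9), and then adenoma cells at 33.7, 11.7, 56.2 and 49.6 (mean 37.8 ± 19.8). Other epithelial cells were at 22.9, 15.9, 49.6 and 41.5 (mean 32.5 ± 15.7). Each of these 4 classes overlapped the next in range, so their order is not resolved by the libraries. In each of them both kit version 3 libraries lay above both version 2 libraries. Endothelial cells held 4 Vegfa UMIs in all, from 1 cell of VApcMinL replicate 1. In ApcMin replicate 1, 0 of 119 endothelial cells held one. The bound of 3 UMIs used for a count of 0 is 5.02 CPM there and 35.8 and 40.9 CPM in the kit version 3 libraries.

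Within the other epithelial cells Vegfa differed by cell type. Cells with high enterocyte marker content were at 44.5, 28.1, 58.4 and 47.5 CPM. The remaining epithelial cells, which passed no gate for a mature type, were at 16.3, 6.05, 22.8 and 38.3 in that order, so enterocytes lay above them in every library. Among secretory cells, goblet cells were at 12.3, 5.99, 53.3 and 29.8, close to the enterocytes in ApcMin replicate 2. Enteroendocrine cells, the hormone-secreting cells, were at 79.8, 32.5, 211 and 78.2 on 10, 4, 14 and 23 cells. Each value lay above that of the enterocytes. In VApcMinL replicate 1 this order, 32.5 against 28.1, rests on 4 cells with a median of 3442 UMIs and is not resolved. A small class of other myeloid cells (inflammatory myeloid cells without the macrophage markers) had 43.1, 209, 989 and 536 CPM in 17, 14, 4 and 16 cells.

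Vegfb and Pgf, whose products bind Flt1 but not Kdr, differed from Vegfa and from each other. Vegfb was at 21.9, 17.8, 27.1 and 28.4 CPM in the adenoma cells of the 4 libraries, against 13.8, 6.61, 5.63 and 14.4 in other epithelial cells. Fibroblasts had the highest mean, 30.8 ± 15.7 (SD, n = 4), and overlapped the adenoma class. Enterocytes, where Vegfa was high, were at 1.18 to 2.50 for Vegfb.

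Pgf, which binds Flt1, was counted mainly in macrophages, endothelial cells and fibroblasts. It was at 73.5, 71.2, 43.3 and 23.6 CPM in macrophages (mean 52.9 ± 23.9, SD, n = 4) and at 58.6, 25.5, 35.8 and 54.6 in endothelial cells (mean 43.6 ± 15.6). Both overlapped fibroblasts at 10.7 to 32.6, while adenoma cells were at 2.13 to 3.20 and overlapped none of the 3. The endothelial Pgf UMIs came from 17 of 201 cells. Of these, 9 were among the 32 lymphatic and 8 among the 169 blood endothelial cells, and 11 also held Kdr.

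Flt1 in adenoma cells stood apart from the other receptor genes. Its level there was 33.9 CPM in ApcMin replicate 1, 14.7 in VApcMinL replicate 1, 77.6 in ApcMin replicate 2 and 45.1 in VApcMinL replicate 2, on 430, 183, 1251 and 3089 UMIs. Kdr had 9, 2, 8 and 18 UMIs in the same cells. A Flt1 UMI was found in 36.7%, 15.4%, 47.0% and 43.0% of adenoma cells, and single cells held up to 16, 11, 91 and 28 Flt1 UMIs. Few of the Flt1-positive adenoma cells also held Kdr, namely 6 of 181, 1 of 88, 5 of 182 and 8 of 945. Kdr was rare rather than apart from Flt1, since only 9, 2, 5 and 11 adenoma cells held Kdr at all.

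Depth and free RNA bear on such shares, so cells were also compared at 1000 UMIs each. At that depth 3.65% of adenoma cells in ApcMin replicate 1 (exact binomial 95% interval 2.18 to 5.71%), 1.23% in VApcMinL replicate 1 (0.495 to 2.51%), 8.53% in ApcMin replicate 2 (5.94 to 11.8%) and 4.37% in VApcMinL replicate 2 (3.56 to 5.31%) held Flt1. T cells, which should lack it, held it in 0, 0.830, 0 and 0% of cells, at a median of 2090 to 2917 UMIs before thinning against 18694 to 35193 in adenoma cells. Unthinned, the T cell shares were 0, 1.24, 0 and 1.06%. The adenoma and T cell intervals were apart in VApcMinL replicate 2, where that of T cells ended at 1.93%. In the other libraries, with 145, 241 and 57 T cells, they overlapped, and the share of VApcMinL replicate 1 could not be told from that of its T cells.

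Free RNA held Flt1 and Kdr in similar numbers. In barcodes of 10 to 100 UMIs, which mostly hold RNA from broken cells, 1.16, 1.26, 0.914 and 0.886 Flt1 UMIs were counted for each Kdr UMI. Their Flt1 level was 92.4 to 452 CPM over the libraries, against 14.7 to 77.6 CPM of Flt1 in adenoma cells. Their Kdr level was 73.3 to 511 CPM, against 0.160 to 0.710 CPM of Kdr in adenoma cells. Both genes were thus lower in adenoma cells than in these barcodes in every library. Blood endothelial cells had 1.27, 1.28, 1.41 and 2.18 Flt1 UMIs for each Kdr UMI. In adenoma cells the ratio was 47.8 in ApcMin replicate 1, 156 in ApcMin replicate 2 and 172 in VApcMinL replicate 2, and VApcMinL replicate 1 had 183 Flt1 against 2 Kdr UMIs. Other epithelial cells were at 21.5, 15.1, 21.1 and 61.7. The ratio is compared between sources only, since 3′ UMI counts of different genes are not on a common scale. Among adenoma cells thinned to 1000 UMIs, 18, 7, 33 and 96 held Flt1. Flt1-positive cells held a mean of 0.143 to 0.364 endothelial marker UMIs and Flt1-negative cells 0.240 to 0.410. Endothelial marker UMIs were more in the Flt1-positive cells of ApcMin replicate 1 and fewer in those of the other libraries. The lowest mean, 0.143, came from the 7 Flt1-positive cells of VApcMinL replicate 1. Goblet cell markers were fewer in the Flt1-positive cells of each library, at 0.143 to 0.240 UMIs per cell against 0.463 to 1.66. Enterocyte markers were fewer as well, at 0.944 against 1.07 in ApcMin replicate 1, 2.0 against 4.92 in VApcMinL replicate 1, 0.485 against 4.60 in ApcMin replicate 2 and 0.656 against 1.43 in VApcMinL replicate 2. Paneth cell markers were also fewer in each library, at 0.833 against 1.02, 0.286 against 0.764, 0.939 against 1.94 and 1.42 against 1.51, whereas adenoma markers were more in ApcMin replicate 1 (0.944 against 0.526) and fewer in the other libraries.

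Across the epithelium Flt1 was highest in cells with an intermediate number of adenoma markers. In VApcMinL replicate 2 it was at 8.21 CPM in cells with 0 of 9 markers, 27.5 with 1, 61.4 with 2, 62.5 with 3, 52.8 with 4, 45.3 with 5 and 29.3 with 6 or more. ApcMin replicate 2 went from 1.32 with 0 markers to a peak of 117 with 5 and back to 54.3 with 6 or more. In the kit version 2 libraries the peaks were 43.8 with 3 markers in ApcMin replicate 1 and 26.4 with 4 in VApcMinL replicate 1, from 4.95 and 1.5 with 0 markers. All 4 libraries thus had their highest level at 3 to 5 markers. Median UMIs per cell rose along the same axis, from 10263 to 28343 in ApcMin replicate 1, and their part in the pattern was not tested beyond the scaling to CPM. Vegfb was at 4.60 to 9.48 in cells with 0 markers and at 19.5 to 26.9 in those with 6 or more. Vegfa, like Flt1, was highest at 3 or 4 markers in each library, at 38.5, 18.1, 72.5 and 58.1, but stood less far above the cells with 0 markers, which were at 21.4, 16.4, 49.9 and 36.2. With 6 or more markers it was at 22.7, 8.62, 45.9 and 39.8.

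**Figure D2:**
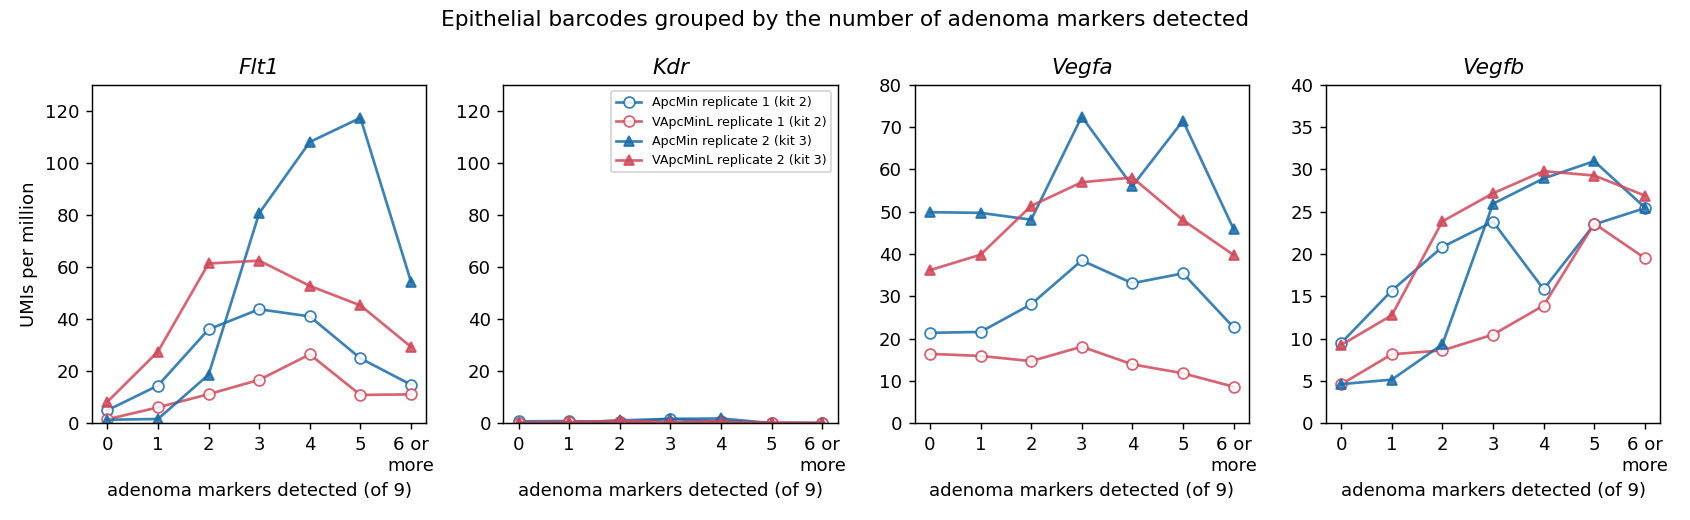
Levels of Flt1, Kdr, Vegfa and Vegfb in CPM in epithelial barcodes grouped by how many of 9 adenoma markers they show, with 1 line for each library. Flt1 peaks at 3 to 5 markers in every library, at 26.4 to 117, while Kdr is at 1.81 or less in every group.

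Among other epithelial cells, Flt1 was nearly missing from enterocytes, at 2.66, 1.3, 0.459 and 3.22 CPM, and was at 19.0, 7.88, 14.4 and 45.5 in the remaining epithelial cells. Paneth cells, the antimicrobial cells of the crypt base, had the highest epithelial levels but were few. Their levels were 123, 60.1, 322 and 571 CPM on 2, 7, 14 and 57 UMIs, found in 1 of 5, 3 of 7, 1 of 2 and 5 of 7 cells. In VApcMinL replicate 2, 1 Paneth cell held 38 of the 57 UMIs. Fibroblasts had 34.4, 9.39, 30.8 and 35.4 and macrophages 25.2, 0, 8.66 and 17.7, both overlapping the range of the adenoma cells.

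The genotype comparison asked whether the genes differ between libraries labelled VApcMinL and ApcMin within a class. It used UMI counts summed per library and edgeR's quasi-likelihood test with the kit as a block, which pairs the libraries. No member of the family passed the test in adenoma, other epithelial or macrophage cells. Over all genes the share called was 0% in adenoma cells (0 of 13040), 0.015% in other epithelial cells (2 of 13357, 0.00749% in each direction) and 0.0226% in macrophages (1 of 4434). At an unadjusted p under 0.05, 27, 41 and 125 genes were counted, and DESeq2 called 6, 5 and 0. Of the calls by edgeR, Xist was higher in the libraries labelled VApcMinL in other epithelial cells and macrophages. Nts, the gene of the gut peptide neurotensin, was lower by 6.68 ± 0.57 (log2, SE) in other epithelial cells, with an adjusted p of 0.0474 by edgeR. No gene was called in this class without the kit block, at a mitochondrial limit of 10%, or without either ApcMin library, so the Nts call was lost in each.

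Flt1 in adenoma cells was the member nearest to a call. It was lower in both pairs, from 33.9 to 14.7 CPM in the kit version 2 pair and from 77.6 to 45.1 in the version 3 pair, a log2 difference of -0.99 ± 0.24 (SE), with an unadjusted p of 0.0159 and an adjusted p of 1 by edgeR. Without the kit block the unadjusted p was 0.201 (edgeR), and with 1 library left out the difference ranged from -1.83 to -0.33. Vegfa was at 33.7 and 11.7 in that order in the version 2 pair and at 56.2 and 49.6 in the version 3 pair (log2 -0.83 ± 0.44, adjusted p of 1 by edgeR), without a call. Nrp1 differed by -0.67 ± 0.36, Vegfb by -0.11 ± 0.25 and Pgf by 0.20 ± 0.46, and Kdr and Flt4 did not pass the filter on low counts in this class. Summed adenoma marker content moved with the libraries too, at a median of 4.18 and 9.34 per 10000 UMIs in ApcMin replicates 1 and 2 and 13.2 and 4.88 in VApcMinL replicates 1 and 2. Its part in the Flt1 difference was not tested, nor was that of the adenoma gate built on these markers.

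In other epithelial cells Flt1 went opposite ways in the pairs, from 14.4 to 4.90 CPM with kit version 2 and from 4.37 to 29.0 with version 3. The fitted difference was 0.54 ± 0.98 (log2, SE). Vegfa differed by -0.46 ± 0.37 and Pgf by 0.63 ± 0.84, and the other 3 genes tested, Kdr, Nrp1 and Vegfb, by 0.08 or less in size with SEs of 0.60 to 0.97. All adjusted p-values by edgeR were 1. In macrophages Nrp1 (-0.39 ± 0.34), Pgf (-0.33 ± 0.38) and Vegfa (-0.12 ± 0.46) passed the filter and none was called, each with an adjusted p of 0.999 by edgeR. Whether the genotype difference itself differed between adenoma and other epithelial cells was tested over 13936 genes, of which 0% were called by edgeR, 73 genes had an unadjusted p under 0.05 and DESeq2 called 3. For Flt1 that difference was -1.53 ± 0.82, with an adjusted p of 1 by edgeR, and ranged from -2.80 to -0.33 with 1 library left out. The endothelial comparison across all genes was not run because the kit version 3 libraries held 8 and 7 endothelial cells, under the minimum of 10.

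**Figure D3:**
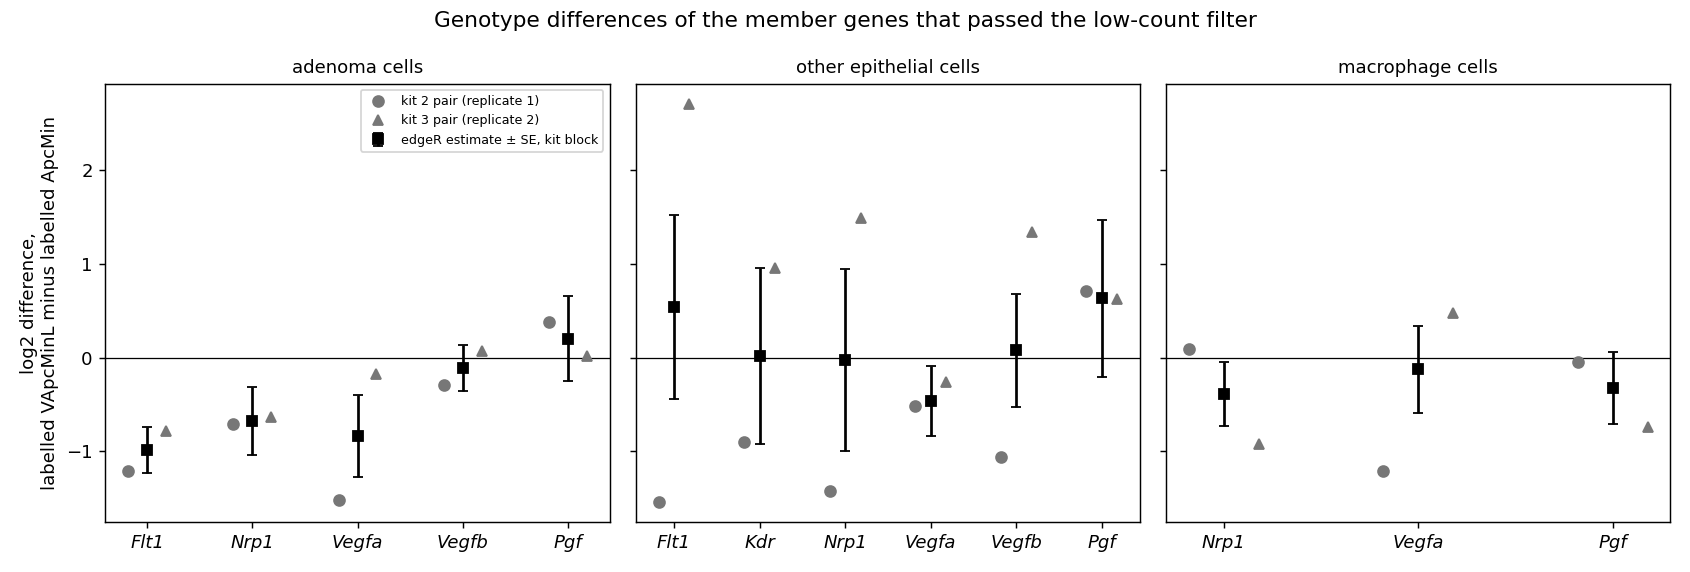
Log2 difference, libraries labelled VApcMinL minus libraries labelled ApcMin, for each gene that passed the filter in adenoma, other epithelial and macrophage cells, with the kit version 2 pair as circles, the version 3 pair as triangles and the edgeR estimate ± SE in black. Flt1 lies below 0 in both pairs in adenoma cells (-1.21 and -0.78) and on both sides of 0 in other epithelial cells.

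The share of positive cells at 1000 UMIs per cell was compared between the genotypes as well, in the class with the highest mean for each gene. That class was picked among endothelial cells, fibroblasts, macrophages, mast cells, T cells, B or plasma cells, adenoma cells and other epithelial cells. Small classes were left out, among them other myeloid cells, where Vegfa lay above fibroblasts in VApcMinL replicate 1 and both kit version 3 libraries. In endothelial cells the mean share of the libraries labelled VApcMinL minus that of the libraries labelled ApcMin was -6.34 percentage points for Flt1 (exact two-sided permutation p = 0.667), -9.71 for Kdr (exact permutation p = 0.667), -16.9 for Flt4 (exact permutation p = 1) and -23.2 for Nrp1 (exact permutation p = 0.33). In fibroblasts it was 12.0 points for Vegfa (exact permutation p = 0.33) and -0.853 for Vegfb (exact permutation p = 0.667), and in macrophages 3.21 for Pgf (exact permutation p = 0.667). The Nrp1 difference turned to 3.60 points without thinning, and that of Flt4 was 1.86 in the kit version 2 pair and -35.7 in the version 3 pair, which holds 8 and 7 cells. With 2 libraries against 2 the smallest possible p is 0.33, so no such test could pass 0.05.

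Another comparison asked which genes went with Vegfa from cell to cell. Each epithelial cell was thinned to 1000 UMIs, called positive if a Vegfa UMI was among them, and summed by call and library, with the library as a block. In other epithelial cells, 39, 31, 98 and 112 cells of the 4 libraries were positive. Flt1 was the family member called higher in them. It went from 12.8 to 25.6 CPM in ApcMin replicate 1, from 7.11 to 32.3 in VApcMinL replicate 1, from 4.46 to 61.2 in ApcMin replicate 2 and from 20.7 to 62.5 in VApcMinL replicate 2. The rise was seen in 4 of 4 libraries and was 1.84 ± 0.57 (log2, SE), with an adjusted p of 0.0286 by edgeR, on 15 UMIs in positive and 64 in negative cells. The positive cells held 1, 1, 6 and 7 of these UMIs, so the direction in each kit version 2 library rests on a single UMI. Of 7675 genes tested, 5.24% were called, 0.625% higher and 4.61% lower, and the median over all of them was -0.19. DESeq2 gave Flt1 a log2 difference of 2.11 without an adjusted p.

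The call for Flt1 in other epithelial cells was lost in edgeR without ApcMin replicate 1 (adjusted p = 0.0575), without ApcMin replicate 2 (0.479) and without VApcMinL replicate 2 (0.088), and held without VApcMinL replicate 1 (0.0428). It was also lost without the library block (0.514, with 0 genes called in all), without the filter on low counts (0.0539), at a mitochondrial limit of 10% (0.0606) and with the call made on all UMIs of a cell (0.102). Depth moved with the Vegfa call, with a median of 7128, 8383, 14578 and 12959 UMIs in positive and 12830, 12222, 26626 and 17577 in negative cells before thinning. The counts left over after the 1000 UMIs that made each call are a larger and separate sample of the same cells. In these, Flt1 was higher in the Vegfa-positive cells of every library, at 33.2 against 14.0 CPM in ApcMin replicate 1, 21.4 against 4.45 in VApcMinL replicate 1, 19.9 against 3.51 in ApcMin replicate 2 and 98.9 against 25.6 in VApcMinL replicate 2. The difference was 1.91 ± 0.23 (log2, SE), with an adjusted p of 0.000695 by edgeR, in a fit that called 5.29% of 12169 genes, 2.08% higher and 3.21% lower. The positive cells with any Flt1 UMI were 12.8%, 3.23%, 5.10% and 25% of all positive cells, which in VApcMinL replicate 1 is 1 cell. The makeup of the class bears on this value, since 23, 22, 76 and 48 of the positive cells were enterocytes, with 1, 0, 0 and 7 left-over Flt1 UMIs. In the remaining epithelial cells Flt1 was higher beside Vegfa in every library, at 62.4 against 18.6, 54.8 against 6.97, 200.2 against 10.7 and 144 against 40.2 in the same library order. These positive values came from 8, 6, 32 and 131 UMIs, held by 30%, 16.7%, 35.7% and 44.2% of 10, 6, 14 and 52 positive cells, again 1 cell in VApcMinL replicate 1. Cells with 2 of 9 adenoma markers, just under the adenoma gate, also count as other epithelial cells. They held 109, 44, 122 and 522 Flt1 UMIs, at 36.1, 11.1, 18.6 and 61.4 CPM. Cells with 0 markers were at 4.95, 1.5, 1.32 and 8.21. The part of such near-gate cells in the Flt1 difference beside Vegfa was not tested.

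In adenoma cells 16, 3, 28 and 122 cells were positive, and the thinned counts did not call Flt1 (0.38 ± 0.49 log2, adjusted p = 0.925 by edgeR). Of 4506 genes, 0.0888% were called, 0.0666% higher and 0.0222% lower. The left-over counts did call it. Flt1 was at 119 CPM in Vegfa-positive against 31.3 in Vegfa-negative adenoma cells of ApcMin replicate 1, at 49.5 against 14.5 in VApcMinL replicate 1, at 152 against 72.3 in ApcMin replicate 2 and at 95.6 against 42.6 in VApcMinL replicate 2. It was higher in 4 of 4 libraries, by 1.29 ± 0.16 (log2, SE), with an adjusted p of 0.000195 by edgeR, in a fit that called 0.898% of 12585 genes, 0.421% higher and 0.477% lower. The value of VApcMinL replicate 1 rests on 4 UMIs in 3 cells. Left-over Kdr UMIs were too few to compare, with 0, 0, 3 and 2 in the Vegfa-positive adenoma cells and 0, 0, 0 and 3 in the Vegfa-positive other epithelial cells of the 4 libraries. Nrp1 in other epithelial cells differed by 2.1 ± 1.11 in the thinned counts (adjusted p = 0.331 by edgeR) and by 1.98 ± 0.54 in the left-over counts (adjusted p = 0.0486 by edgeR). The left-over value rests on 4, 3, 8 and 7 Nrp1 UMIs in the positive cells of the 4 libraries. In VApcMinL replicate 1 they were held by 3.23% of 31 positive cells.

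**Figure D4:**
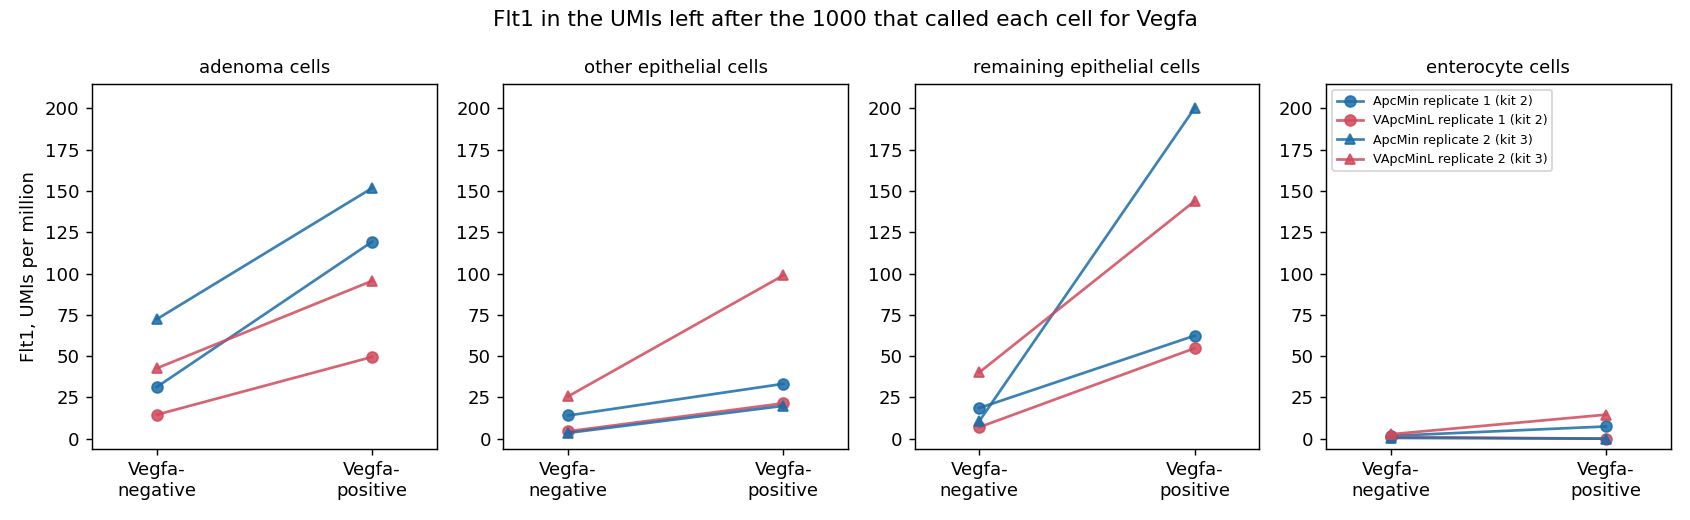
Flt1 in CPM in Vegfa-negative and Vegfa-positive cells of each library, counted in the UMIs left after the 1000 that made the Vegfa call. The lines of all 4 libraries rise in adenoma, other epithelial and remaining epithelial cells, and enterocytes lie at or under 14.5.

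The genes called beside Flt1 in the thinned other epithelial cells were of several kinds. By size, the risers that moved the same way in 4 of 4 libraries were led by Flt1, Adm (1.57 ± 0.48), Slc28a2 (1.55 ± 0.27), Fabp5 (1.41 ± 0.33) and C130074G19Rik (1.33 ± 0.39). The Adm rise rests on 20 UMIs in positive cells. In the kit version 2 libraries these were at 25.6 and 32.3 CPM, as for Flt1, so the direction in each again rests on a single UMI. The same holds for Fabp5 in VApcMinL replicate 1, at 32.3 against 24.55. Adm encodes adrenomedullin, a vasoactive peptide that also responds to hypoxia, Slc28a2 is a nucleoside transporter of enterocytes and Fabp5 binds fatty acids. The 5 genes with the largest falls, Hist1h2ae, Bet1l, Tac1, Tk1 and Gid4, had 0 UMIs in positive cells. They passed the filter on low counts only through the negative cells, so nothing is read from their falls. Malat1, a nuclear RNA, was also higher (0.78 ± 0.18), and its part in the other differences was not tested. In adenoma cells the call that moved the same way in 4 of 4 libraries was the Paneth gene Defa24, lower by 2.92 ± 0.54 with an adjusted p of 0.000316 by edgeR. The positive adenoma cells held 12 Defa24 UMIs in all. In VApcMinL replicate 1 the level was 0 CPM in 3 positive cells, against 63.5 in negative cells. So few positive cells cannot resolve a fall from that level, so the direction in this library is not read. The 3 risers in adenoma cells, Gpx6, Tff2 and Pgc, did not move the same way in all libraries.

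Genes that respond to the pathway or act upstream of it were read as lists. Of 24 HIF and hypoxia target genes, all 24 were tested in other epithelial cells, 2 were higher beside Vegfa, Adm and Bnip3 (1.22 ± 0.37, a mitophagy gene, adjusted p = 0.0279 by edgeR), and 0 were lower. Over all genes of that fit, 0.625% were called higher and 4.61% lower. The 24 genes had a median of 0.10, against -0.19 over all genes. In adenoma cells 17 were tested and 0 were called, with a median of 0.15 against -0.18 over all genes. The share called over all genes there was 0.0888%. Of 6 HIF pathway regulators, 5 were tested in other epithelial cells and 0 called, Hif1a being at -0.21 ± 0.36. Of 10 VEGF-responsive and tip cell genes 2 were tested there, and Adm was the one called. Of 9 enterocyte markers, Apoa4 was higher (0.62 ± 0.19) and Fabp1 lower (-0.58 ± 0.19, not in every library), and of 9 adenoma markers 4 were tested and 0 called. In adenoma cells 0 of 8 enterocyte, 0 of 7 adenoma, 0 of 2 HIF regulator and 0 of 1 VEGF-responsive genes tested were called, and no gene of the list of other VEGF, neuropilin and angiopoietin genes passed the filter in either split. Between the genotypes, 0 genes of any of these lists were called in any class. Over all genes the share called was 0% in adenoma cells, 0.015% in other epithelial cells and 0.0226% in macrophages, so the absence of calls says nothing about the lists. The HIF targets had a median log2 difference of -0.20 in adenoma cells and -0.16 in other epithelial cells, and the VEGF-responsive genes of -0.33 and -0.34, against 0.02 and 0.00038 over all genes. The adenoma markers had a median of 0.15 and 1.07 in the same classes. These 9 genes also set the gate between the classes, which limits their levels within each. Nothing is therefore read from their medians or counts of calls, here or beside Vegfa.

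Several genes of the pathway's response, but not all, were at their highest in the blood endothelial cells. Of the same list, Kcne3 was higher in adenoma cells and Adm in lymphatic endothelial cells, with values given under the other observations. Esm1, a marker of VEGF-driven tip cells, had a mean of 394 CPM there (range 234 to 619 over the 4 libraries), Aplnr, the apelin receptor, 337 (230 to 596), and its ligand gene Apln 226 (130 to 458). Dll4, the Notch ligand of tip cells, was at 131 (65.1 to 201). Among the other family genes, the angiopoietin receptor genes Tie1 and Tek were at 269 and 133 in blood endothelial cells. Nrp2, the co-receptor of lymphatic vessels, was at 200 in blood and 990 in lymphatic endothelial cells, and Vegfc, a ligand of Flt4, at 39.4 in blood endothelial cells and 32.2 in fibroblasts. The other Flt4 ligand gene, Figf (VEGF-D), was at 30.5 in fibroblasts and 0.958 in blood endothelial cells. HIF genes differed by class as well, with Epas1 at 412 in blood endothelial cells and 3.59 in adenoma cells and Hif1a at 268 and 100.2.

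The genes whose levels ran most like those of each member were named by Pearson's correlation of log2(CPM + 10) over 28 sums of a class and a library with at least 20 cells, among 9715 genes. The points share libraries and depth, and the endothelial class gave 2 of them, so these values are a description. For Flt1 they were Tek (0.94), Cav2 (0.93) and Fzd4 (0.93), for Kdr Ushbp1, Adgrl4 and Myct1 (0.99 each), and for Flt4 Adgrl4, Myct1 and Sox7 (1.00 each after rounding). Nrp1 ran with Acvrl1 (0.99), Phf11d (0.96) and Stard8 (0.95). The ligand genes had looser matches, Vegfa with Pmepa1 (0.90), Alas1 (0.86) and Rin2 (0.85) and Vegfb with Cinp (0.74), Slc1a4 (0.69) and Zfp24 (0.68), while Pgf ran with Tnfaip2 (0.96), Man1c1 (0.94) and Rgl1 (0.92). Tek, like Flt1, was also counted in adenoma cells, at 9.31 to 24.95 CPM.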

How the data were processed

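Single cells of 4 libraries of pooled adenomas were counted. The authors deposited raw UMI counts per gene and barcode, made with Cell Ranger. The submitters' processing notes name Cell Ranger 2.1.1, Seurat 3.1.1 and mm10, while the headers of the kit version 3 tables name another software version. Counts from 3′ tags are not divided by gene length. The tables held 27998 or 31053 genes, of which 27514 were shared and used.

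Barcodes with at least 1000 UMIs and at most 20% mitochondrial UMIs were kept. Classes were set by marker counts: 5 of 8 epithelial markers with at least 40 of 10000 UMIs, 3 of 9 adenoma markers, 6 of 11 endothelial markers and 5 of 8 macrophage markers. Enterocytes and Paneth cells needed 200 and 100 of 10000 UMIs from their markers. Barcodes that passed gates of several lineages (117) were removed as doublets, and Scrublet was an alternative. Members and lists were chosen with earlier results of these data known, so no choice is independent of them.

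UMI counts were summed per library and tested with edgeR 4.0.16 (quasi-likelihood, TMM, minimum count of 10, Benjamini-Hochberg over all genes tested, threshold 0.05) in R 4.3.3, with DESeq2 1.42.0 as an alternative. The scripts were tested on simulated data. Same-numbered libraries share a kit per the labels, and their deviations from the group means correlated at 0.170 in adenoma, 0.180 in other epithelial and 0.355 in macrophage cells, so the kit was a block. Shares of cells were compared by an exact two-sided permutation test. Endothelial cells were compared between genotypes by these shares only, and not across all genes, because 2 libraries held under 10 of them. Depth was 44660305 to 128247396 UMIs per library, and intervals cover counting error only.

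The text names the 7 members, the 5 largest rises and falls among genes called with the same direction in every library or pair and 20 CPM or more on the higher side, up to 4 called genes of a list, and the 3 genes most alike to each member. Malat1, Gpx6, Tff2, Pgc and Tek in adenoma cells fall outside this rule and were chosen after their values were seen. Sequences came from RefSeq and gene positions from GENCODE M21.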

Additional observations from a re-analysis of the deposited data

Results flagged for a closer look

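All 7 genes were counted in barcodes of only 10 to 100 UMIs, which lie far under the limit for cells and enter no comparison between groups. Flt1 was at 92.43 CPM (UMIs for every 1000000 UMIs of such barcodes) in the lowest and 452.5 in the highest library, Kdr at 73.25 and 510.6, Flt4 at 7.267 and 17.99 and Nrp1 at 148.2 and 379.1. Of the ligand genes, Vegfa was at 27.61 and 41.3, Vegfb at 23.41 and 37.85 and Pgf at 3.488 and 10.04. Such barcodes mostly hold RNA set free by broken cells. In adenoma cells Kdr was at 0.160 to 0.710 and Flt1 at 14.7 to 77.6, both below these barcodes in every library. The same held for Flt4, Nrp1 and Pgf. Vegfa in adenoma cells was below these barcodes in the kit version 2 libraries and above them in the version 3 libraries. Vegfb was below them except in VApcMinL replicate 2.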

How the results depend on the processing

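No endothelial genotype fit across all genes was made under any setting. Genotype calls in adenoma cells were 0 in the values reported, and 6 with DESeq2, 1 without the filter on low counts, 1 with thinned cells and 0 to 1 when 1 library was left out. In other epithelial cells they were 2, and 0 without the replicate block, 5 with DESeq2, 4 without the filter, 0 at a mitochondrial limit of 10% and 0 to 3 with 1 library left out. In macrophages they were 1, and 0 with DESeq2, 0 without the filter, 0 at the 10% limit, 2 with thinned cells and 0 to 13 with 1 library left out. For the interaction they were 0, and 3 with DESeq2, 1 without the filter and 0 to 4 with 1 library left out. Beside Vegfa in adenoma cells, the 4 calls became 0 without the replicate block, 1 with DESeq2, 1 without the filter, 32 with the unthinned call, 113 in left-over UMIs, 2 at the 10% limit and 0 to 3 with 1 library left out. In other epithelial cells the 402 calls (48 higher and 354 lower) became 0 without the replicate block, 190 with DESeq2 (37 and 153, with 170 shared), 644 in left-over UMIs (253 and 391), 261 at a floor of 2000 UMIs (34 and 227), 29 at the 10% limit (8 and 21) and 38 to 265 with 1 library left out. The cause of these moves was not tested.

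Of 260 alternative log2 differences of the 7 genes, 226 kept direction and side of the threshold, 7 lost and 2 gained a call, and 25 reversed. None of the reversed values was called. Vegfb in adenoma cells was 0.0097 with thinned cells. In other epithelial cells Kdr was -0.13 without the replicate block and -0.041 after Scrublet, and Vegfb was -0.11 at the 10% limit. Vegfa in macrophages was 0.20 without the replicate block and 0.55 with 1 more gate marker. Vegfb beside Vegfa in other epithelial cells was -0.30 in left-over UMIs. The share difference of Nrp1 in endothelial cells was 3.60 points unthinned. With 1 library left out, fitted without the kit block, adenoma Vegfa ranged from -1.86 to 0.092 and Vegfb from -0.40 to 0.14. In other epithelial cells Flt1 ranged from -0.85 to 1.73, Kdr from -0.75 to 0.77, Nrp1 from -1.17 to 1.15, Vegfa from -1.18 to 0.29 and Vegfb from -0.48 to 0.71. In macrophages Nrp1 ranged from -0.91 to 0.038, Pgf from -1.46 to 0.30 and Vegfa from -2.08 to 1.02. For the interaction Nrp1 ranged from -1.64 to 0.25, Vegfa from -0.79 to 0.041 and Vegfb from -0.79 to 0.37. The endothelial share differences ranged from -15.9 to 3.26 points for Flt1 and from -36.9 to 3.03 for Flt4. With 8 and 7 endothelial cells in the kit version 3 libraries, endothelial levels there rest on few cells.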

Other observations

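Other genes of the pathway lists were counted in adenoma cells. Kcne3, a potassium channel subunit gene that is read as a tip cell gene, had a mean of 301 CPM in adenoma cells (206 to 379 over the 4 libraries) against 86.1 in blood endothelial cells. Adm had a mean of 24.5 in adenoma cells, 35.3 in blood and 224 in lymphatic endothelial cells. Both levels are described without a test.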
